A study of Homo sapiens with 12 samples.

Results

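The nuclear genes of oxidative phosphorylation were examined in 2 human neuroblastoma lines treated with THZ531, which binds covalently to CDK12 and CDK13 and inhibits these kinases, which phosphorylate elongating RNA polymerase II. Members were defined by gene symbol: symbols beginning with NDUFA, NDUFB, NDUFC, NDUFS, NDUFV, UQCR, COX4 to COX8 or ATP5, together with the SDHA to SDHD genes and without pseudogenes and assembly factors. This gave 83 of 18244 measured genes, with 36 in complex I, 3 in complex II, 8 in complex III, 17 in complex IV and 19 in complex V. They were measured by 190 probe sets, and where a gene had several, its brightest one over the 12 arrays was used. The rule also takes in COX7A2L, a supercomplex factor, ATP5IF1, the inhibitor of ATP synthase, and UQCRHL and ATP5MGL, close copies of UQCRH and ATP5MG whose probes may share transcripts with them. SDHB, UQCRFS1, NDUFA4 and NDUFA4L2 matched no probe set used and were not analysed here, and 0 of the 13 subunits encoded by mitochondrial DNA were measured.

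Kelly and IMR-32 cells, both established lines grown in culture, were treated for 6 h with DMSO, the solvent control, or with 100 nM or 400 nM THZ531. Each of the 6 groups held 2 arrays that the labels call biological duplicates, so 12 PrimeView 3′ expression arrays were compared in all. The question for these genes was how far the RNA of an abundant housekeeping pathway changed under each dose in each line. Intensities had been scaled by the authors to added ERCC spike-ins, which leaves a shift shared by most genes in the values. Changes are on the log2 scale, each ± its limma standard error with 2 arrays in a group. Adjusted p stands for limma's p after Benjamini-Hochberg adjustment over all 18244 genes. A gene was called changed at an adjusted p under 0.05. With 2 arrays a side, the smallest p of an exact two-sided permutation test is 0.333, so every call rests on the spread pooled over genes and groups.

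Oxidative phosphorylation couples electron transport to ATP synthesis across the inner mitochondrial membrane. Complex I takes electrons from NADH, complex II from succinate, and both pass them through ubiquinone to complex III, cytochrome c and complex IV, where oxygen is reduced. Complexes I, III and IV pump protons, and complex V, the ATP synthase, uses their return to make ATP. Most subunits are encoded in the nucleus, and the factors NRF1, GABP (an ETS factor) and YY1 are textbook regulators of their promoters.

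The promoters were read for those factors, because shared motifs are a feature that the choice of members did not use. RefSeq promoters of GRCh38.p14, 250 bases before to 50 bases after each gene's start, matched 68 of the 83 genes, and the promoters of 15843 protein-coding genes were scanned in all. The letters GCATGCGC (NRF1), CCGGAAGT (ETS) and AAGATGGC (YY1) were searched on both strands. NRF1 letters stood in 12 of the 68 promoters, which is 17.6% against 4.26% of all promoters. ETS letters stood in 10 (14.7% against 6.19%) and YY1 letters in 10 (14.7% against 3.91%). At least 1 of the 3 motifs stood in 27 promoters, 39.7% against 13.2% of all. These are counts of letters and not of bound sites. Of 4 promoters shown as examples, NDUFA8 and NDUFS1 are genes that fell in IMR-32, NDUFS7 is a complex I gene that was not called, and COX5B is the gene that was lower in untreated Kelly than in untreated IMR-32 cells. They lie at chr9:122159730-122160029 (minus strand), chr2:206159395-206159694 (minus strand), chr19:1383657-1383956 (plus strand) and chr2:97645812-97646111 (plus strand) in that order. Capitals mark the motifs, and each sequence runs 5′ to 3′ along its gene.
NDUFA8: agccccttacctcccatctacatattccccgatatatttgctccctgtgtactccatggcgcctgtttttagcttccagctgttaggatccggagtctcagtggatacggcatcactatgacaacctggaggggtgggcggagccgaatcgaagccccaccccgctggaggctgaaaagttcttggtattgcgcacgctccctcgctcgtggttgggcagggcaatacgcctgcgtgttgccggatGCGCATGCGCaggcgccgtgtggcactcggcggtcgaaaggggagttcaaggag
NDUFS1: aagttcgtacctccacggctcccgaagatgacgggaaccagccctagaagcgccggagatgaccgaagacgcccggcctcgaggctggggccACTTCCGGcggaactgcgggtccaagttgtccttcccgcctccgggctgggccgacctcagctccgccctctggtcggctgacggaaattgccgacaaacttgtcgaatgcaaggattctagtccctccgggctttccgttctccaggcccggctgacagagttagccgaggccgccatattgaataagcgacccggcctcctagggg
NDUFS7: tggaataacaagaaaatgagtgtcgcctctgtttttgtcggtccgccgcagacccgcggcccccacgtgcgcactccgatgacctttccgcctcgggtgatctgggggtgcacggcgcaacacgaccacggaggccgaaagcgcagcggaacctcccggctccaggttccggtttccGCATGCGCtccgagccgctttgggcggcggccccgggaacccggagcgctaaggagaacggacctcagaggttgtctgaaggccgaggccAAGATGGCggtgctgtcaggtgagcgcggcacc
COX5B: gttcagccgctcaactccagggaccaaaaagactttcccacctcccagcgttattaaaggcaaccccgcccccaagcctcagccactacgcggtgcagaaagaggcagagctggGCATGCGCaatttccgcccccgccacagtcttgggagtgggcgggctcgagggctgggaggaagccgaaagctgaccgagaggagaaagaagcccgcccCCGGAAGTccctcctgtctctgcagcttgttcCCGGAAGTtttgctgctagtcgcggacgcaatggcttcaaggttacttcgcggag

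Counted from the annotated start, the NDUFA8 promoter held NRF1 letters from position -4 on one strand and from -2 on the other, which overlap. NDUFS1 held ETS letters at -158 on the minus strand. NDUFS7 held NRF1 letters at -73 and YY1 letters at 17, and COX5B held NRF1 letters at -136 and ETS letters at -37 and at -5. NDUFA8 and NDUFS7 thus share the NRF1 letters but not the result described next for IMR-32 at 400 nM: only NDUFA8 was called there, and the difference between them was not tested. Over the matched genes, 2 of the 6 called genes had a motif and 4 had none. The median change was -0.26 with a motif and -0.27 without, in that same comparison.

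Arrays of one group were not equally alike, which touches every result below. Taking a fall of at least 1 log2 unit below the DMSO mean of the same line, 9 members lay that low in Kelly 100 nM replicate 2 and 0 in replicate 1. In the Kelly 400 nM group 7 members did so in replicate 1 and 0 in replicate 2. All 7 of those were among the 9 of Kelly 100 nM replicate 2 (NDUFA5, NDUFB5, NDUFS1, NDUFS4, NDUFV2, SDHD and UQCRC2). Over the 83 members the changes of these 2 arrays of different dose correlated with r = 0.94, against 0.74 between the 2 Kelly 100 nM arrays and 0.55 between the 2 Kelly 400 nM arrays, with the DMSO arrays shared by all. Whether array labels were exchanged between these groups was not tested, so the Kelly group means are those of the arrays as labelled. In IMR-32 at 100 nM, 7 members lay that low in replicate 1 and 0 in replicate 2, while at 400 nM 6 and 9 did. Over all genes the shares that lay that low were 3.73% and 26.5% in the Kelly 100 nM arrays, 25.5% and 4.64% at 400 nM, 32% and 0.263% in IMR-32 at 100 nM, and 37.8% and 40.1% at 400 nM. The part of these arrays in the results was not tested by any outside measure, so medians with and without them are given. Median intensity over all rows ran from 55.9 to 131.8. Hybridisation controls (18 rows), added to every sample before hybridisation and not used for the scaling, had mean log2 levels from 10.51 to 11.31. Of 10 markers of adrenergic neuroblastoma cells, 8 were measured and all 8 lay above the median of all rows, as did 1 of 6 markers of other cell types (COL1A1). In IMR-32 at 400 nM 5 of those 8 fell, with a median of -1.31, and 1 of the 6 fell, with a median of -0.52.

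**Figure D1:**
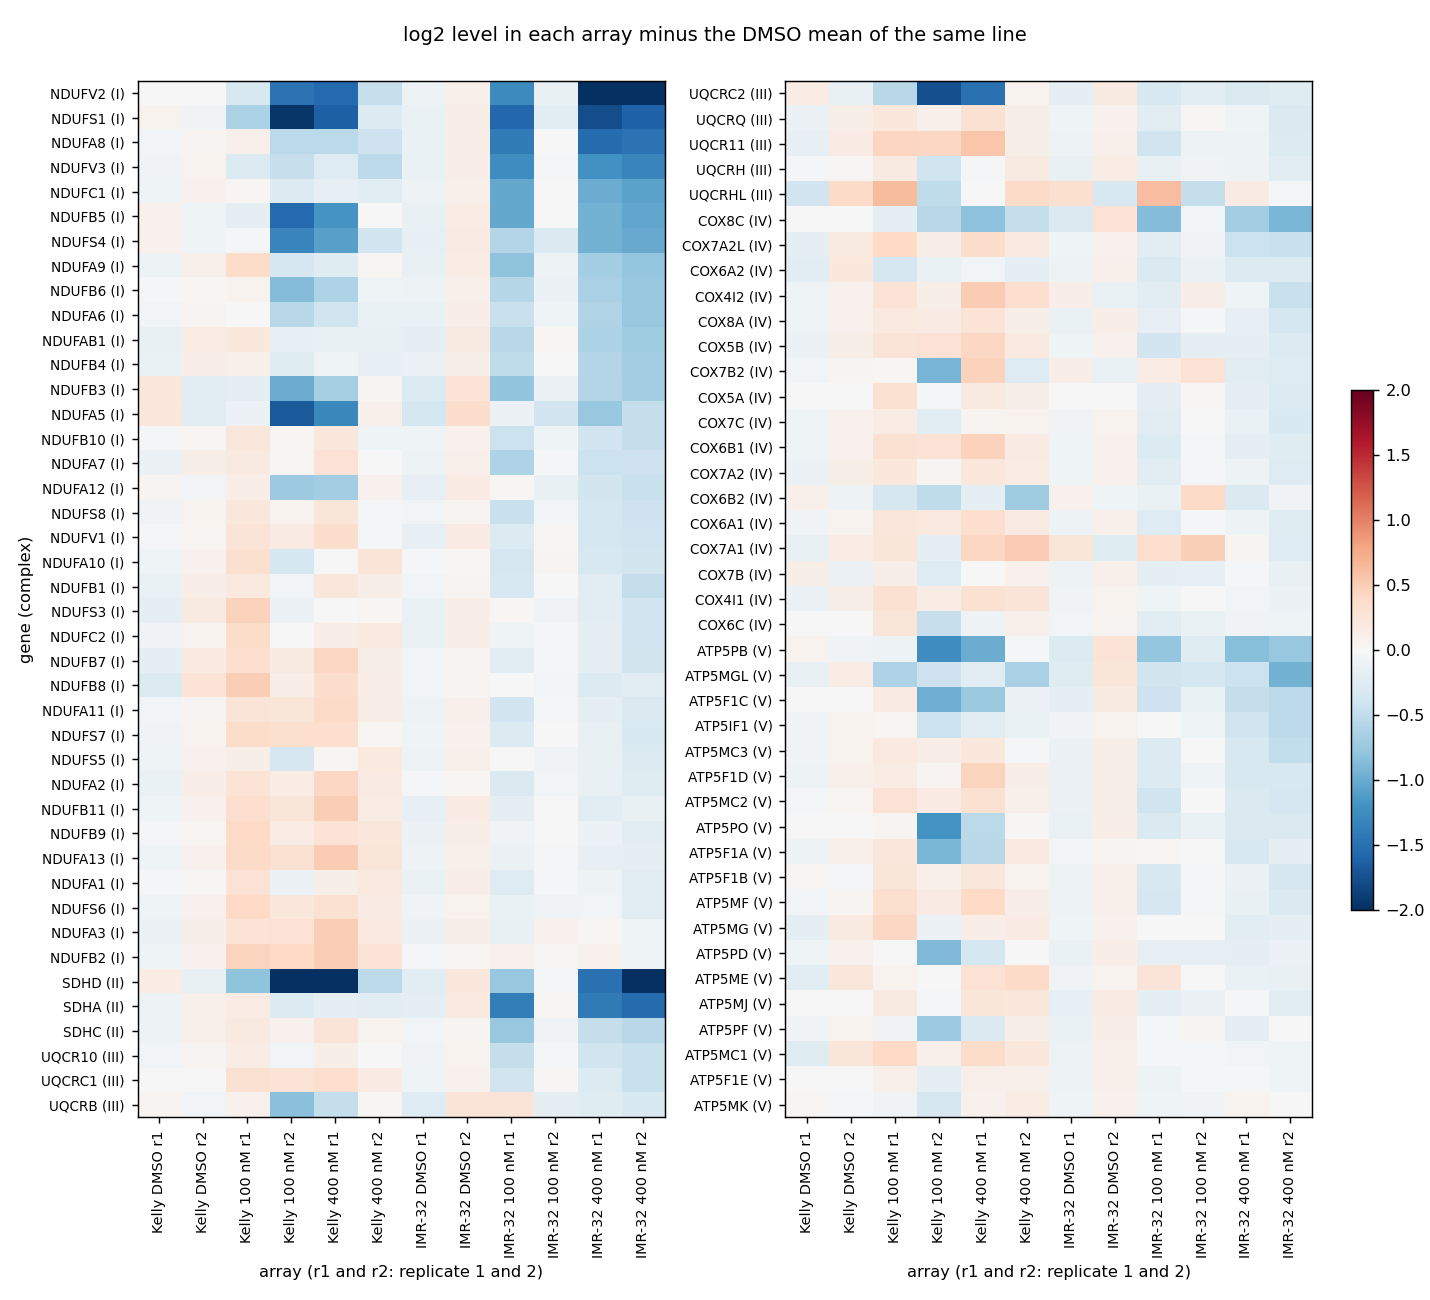
Log2 level of each of the 83 genes in each of the 12 arrays minus the DMSO mean of the same line, with genes as rows (complex in brackets) and arrays as columns; the colour scale ends at 2 and -2, so lower values are drawn at the darkest blue. Kelly 100 nM replicate 2 and Kelly 400 nM replicate 1 share dark rows, and so do IMR-32 100 nM replicate 1 and both IMR-32 400 nM arrays; under median centring most rows of the IMR-32 400 nM columns change sign.

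In IMR-32 cells at 400 nM THZ531, 6 of the 83 genes fell and 0 rose. That is 7.23% of members lower, where 39% of all 18244 genes were called lower and 0.395% higher. The 6 genes were NDUFV2, NDUFS1, NDUFA8, NDUFV3 and NDUFC1 of complex I and SDHA of complex II, and 0 genes of complexes III, IV and V were called. That restriction did not hold in every fit: the mean of all probe sets called UQCR11 of complex III, leaving out either IMR-32 100 nM array called COX8C of complex IV, and a fit of the 4 compared arrays alone called COX8C with ATP5PB and ATP5MGL of complex V. The median member changed by -0.27, against -0.67 for the median of all genes, a difference of 0.41. Of the 83 genes, 81 had a fitted change below 0, as did 91.4% of all genes, but 67 lay above the median gene. Both treated arrays lay below both DMSO arrays for 62 members, or 74.7%, where 76.6% of all genes did so, and 0 members lay above both, where 2.71% of all genes did. The median member thus lay above the median gene, with a few subunits far below the rest. In bulk RNA, fewer cells of a kind and less RNA per cell cannot be told apart.

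The sign of the small changes depends on the scaling between arrays. The hybridisation controls read 10.85 and 11.31 in the IMR-32 DMSO arrays and 10.51 and 10.53 at 400 nM, a mean difference of -0.56 that is larger than the median member's change, and its part in the result was not tested. Median centring set each array to its own median over all 49495 rows, not over the 18244 genes. The median member then changed by 0.78 and the median of all genes by 0.37, so the distance of 0.41 between them was kept. With that scaling 1 member was called lower (NDUFV2) and 32 higher, where 15.8% of all genes were lower and 18.7% higher. Quantile normalization gave 0.27 and 0.18, with 1 lower (NDUFV2) and 2 higher, where 11% of all genes were lower and 7.42% higher. Without any one of the 4 arrays compared, which left 1 array in a group, no call remained among members or among all genes.

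**Figure D2:**
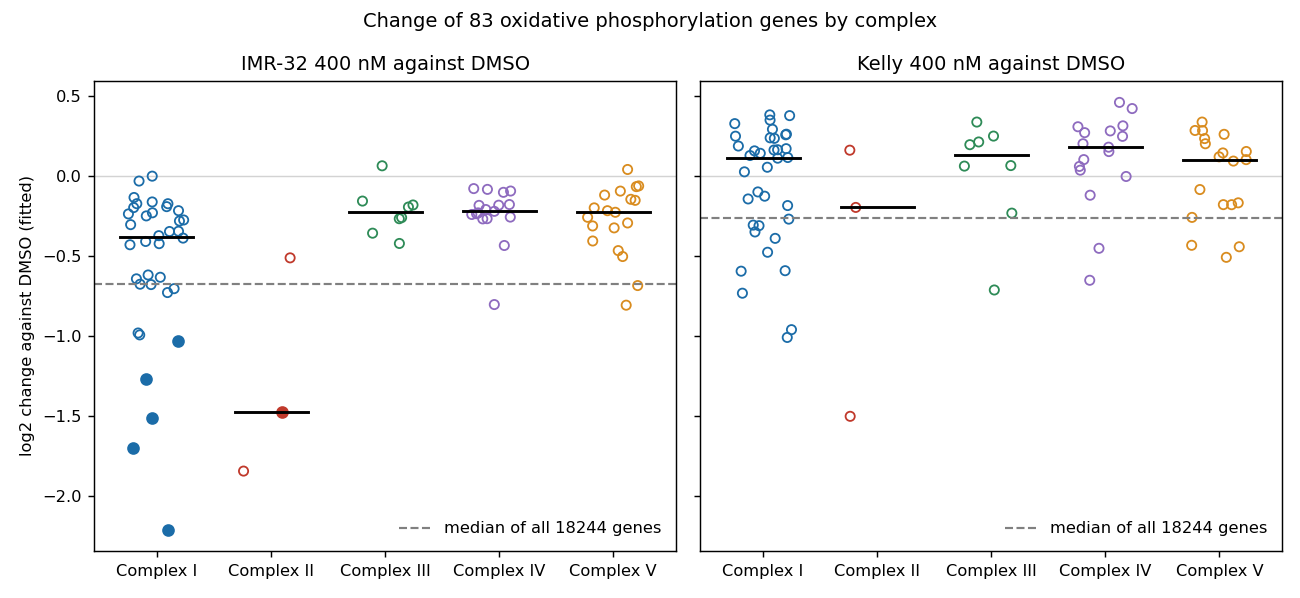
Fitted log2 change at 400 nM against DMSO of each gene by complex, IMR-32 at left and Kelly at right; filled circles were called (limma, adjusted p under 0.05), open circles were not, bars are the median of each complex and the dashed line is the median of all 18244 genes. In IMR-32 the filled circles lie in complexes I and II, and the medians of complexes III, IV and V lie near -0.22; after median centring the median member lies at 0.78 instead.

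Complex I held 5 of the 6 called genes. NDUFV2, an iron-sulphur subunit of the NADH-oxidising arm, had intensities of 2145 and 2450 in the IMR-32 DMSO arrays, 944.0 and 2080 under 100 nM THZ531, then 513 and 480.2 under 400 nM. Both 400 nM arrays lay below every other array of the line, and both 100 nM arrays lay between them and the DMSO arrays. The gene fell by 2.21 ± 0.50 (adjusted p = 0.01757), to 21.7% of the DMSO level. In Kelly its DMSO intensities were 3049 and 3078. They were 2446 and 1100 under 100 nM and 1045 and 2221 under 400 nM, which gave -1.01 ± 0.50 at 400 nM (adjusted p = 0.5034). All 4 treated Kelly arrays lay below both DMSO arrays.

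NDUFS1, the largest subunit of the same arm and the carrier of several iron-sulphur clusters, read 925.3 and 1106 in the IMR-32 controls, 341.5 and 866.8 under 100 nM THZ531, then 297.0 and 328.5 under 400 nM. The 400 nM arrays were the lowest of the line, with 100 nM replicate 1 close above them. It fell by 1.70 ± 0.58 (adjusted p = 0.04599) and its 4 other probe sets had the same sign. The call was lost with the mean of all its probe sets (adjusted p = 0.07358), under the trend and robust settings (0.05072) and without either Kelly DMSO array (0.07109), which enters through the pooled spread. NDUFV3, a small accessory subunit of that arm, read 802.9 and 967.9 in DMSO, 370.9 and 860.6 under 100 nM THZ531, then 380.0 and 353.8 under 400 nM. It fell by 1.27 ± 0.35 (adjusted p = 0.02495), with 2 other probe sets of the same sign, while quantile normalization gave 0.15.

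NDUFV1, the flavoprotein that binds NADH beside NDUFV2, did not follow it. Its log2 levels were 10.40 and 10.75 in IMR-32 DMSO and 10.23 and 10.18 at 400 nM, a change of -0.37 ± 0.22 (adjusted p = 0.2063). The other core subunits measured, NDUFS3, NDUFS7 and NDUFS8, changed by -0.30, -0.23 and -0.39, with adjusted p of 0.3383, 0.3883 and 0.1684. All 4 of these values are above 0 after median centring and after quantile normalization. The difference between NDUFV2 and its neighbours was not tested.

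NDUFA8, an accessory subunit with paired cysteine motifs, and NDUFC1, a small subunit of the membrane arm, were the remaining calls in complex I. NDUFA8 read 2777 and 3344 in the IMR-32 controls, 1154 and 3048 under 100 nM THZ531, then 1043 and 1095 under 400 nM, and it fell by 1.51 ± 0.41 (adjusted p = 0.02372). NDUFC1, named after its values were seen because it completes the 6 calls, read 2706 and 3111 in DMSO, 1427 and 2897 under 100 nM THZ531, then 1457 and 1383 under 400 nM. It fell by 1.03 ± 0.31 (adjusted p = 0.03167), and the change was 0.010 after median centring. Without either Kelly DMSO array the adjusted p was 0.05184. In both genes 100 nM replicate 1 lay at the level of the 400 nM arrays and 100 nM replicate 2 at that of DMSO. At the other end of the complex, NDUFB2 changed by -0.0006 ± 0.19 and NDUFA3 by -0.03 ± 0.21, both with overlapping arrays. The median of the 36 genes was -0.38, and 30 of them had both treated arrays below both DMSO arrays.

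**Figure D3:**
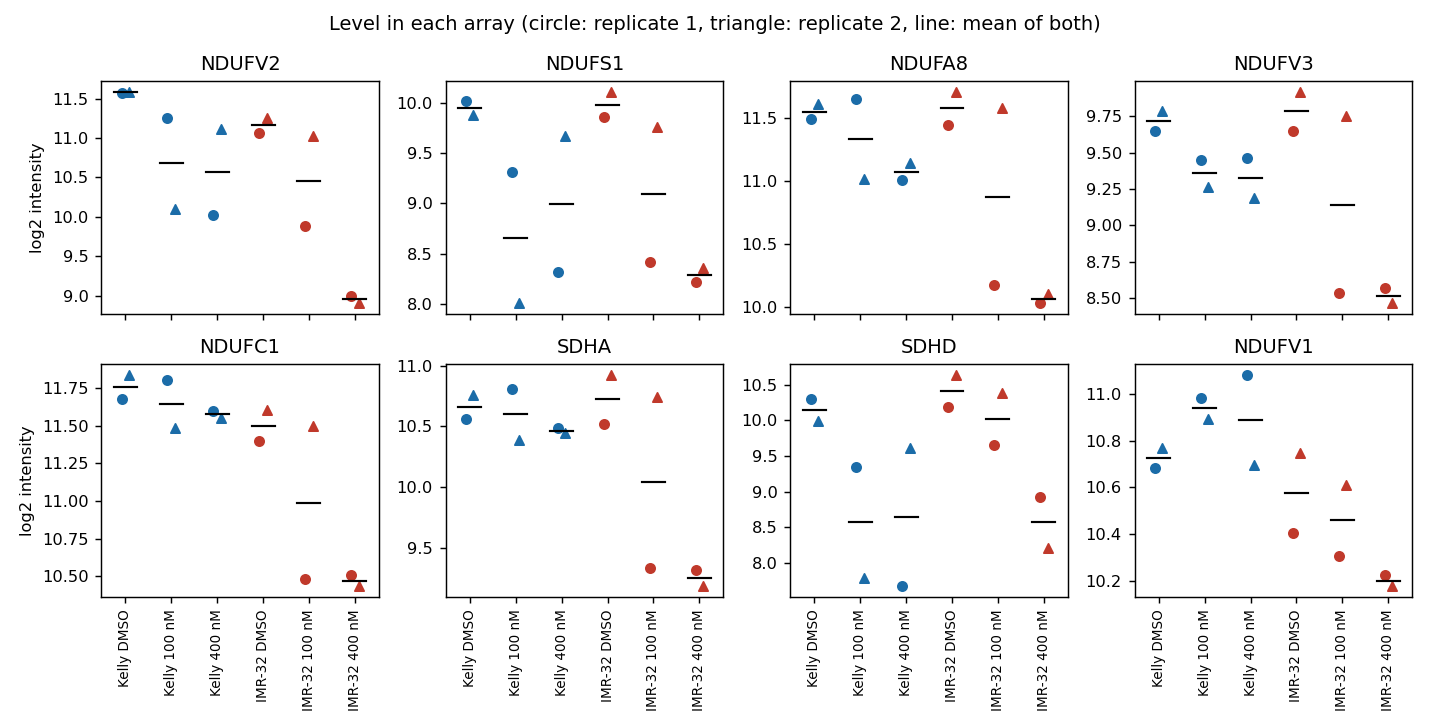
Log2 intensity of the 6 genes called lower in IMR-32 at 400 nM, of SDHD and of NDUFV1 in every array (Kelly blue, IMR-32 red; circle replicate 1, triangle replicate 2, line the mean of both), with a separate vertical scale in each panel that does not start at 0. In IMR-32 the 400 nM points lie together below DMSO, while the 2 points at 100 nM lie far apart in the 6 called genes.

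Complex II, succinate dehydrogenase, has a flavoprotein (SDHA), an iron-sulphur subunit that was not analysed here, and 2 membrane anchors (SDHC and SDHD). SDHA read 1471 and 1947 in the IMR-32 controls, 646.4 and 1717 under 100 nM THZ531, then 637.7 and 581.1 under 400 nM. Again 100 nM replicate 1 lay with the 400 nM arrays. SDHA fell by 1.48 ± 0.40 (adjusted p = 0.02413). In Kelly at 400 nM it changed by -0.20 ± 0.40, and the difference between the lines was 1.28 ± 0.57 (adjusted p = 0.4494). The lines were thus not shown to differ in this fit, though a fit of the compared arrays alone called the difference in SDHA.

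SDHD read 1161 and 1598 in the IMR-32 controls, 802.2 and 1332 under 100 nM THZ531, then 486.5 and 296.6 under 400 nM. Its change of -1.84 ± 0.67 did not pass (adjusted p = 0.05661), although it was larger than that of SDHA. Each of its 4 other probe sets passed when all probe sets were tested separately, with changes from -1.98 to -1.42 and adjusted p from 0.01961 to 0.02865; a pair of them held identical values. In Kelly SDHD read 1258 and 1019 in DMSO, 650.5 and 221.7 under 100 nM THZ531, then 204.0 and 784.4 under 400 nM, so all 4 treated arrays lay below both DMSO arrays, but the 2 arrays of each dose differed widely. SDHC changed by -0.51 ± 0.25 in IMR-32 at 400 nM (adjusted p = 0.1258) and was above 0 under both other scalings.

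In complex III, which passes electrons from ubiquinol to cytochrome c, 0 of 8 genes were called in IMR-32 at 400 nM and the median change was -0.23. The core proteins UQCRC1 and UQCRC2 changed by -0.36 ± 0.21 and -0.26 ± 0.51. UQCR10, a small subunit, had the lowest value at -0.42 ± 0.21 (adjusted p = 0.1373). UQCRHL, which cannot be told apart from UQCRH with certainty, had 0.06 ± 0.48, and UQCRH itself -0.16 ± 0.24. UQCRQ, a small subunit named after its values were seen, showed how far probe sets can part. The probe set that stood for it changed by -0.19 ± 0.20, while of 2 dimmer ones the first changed by 0.73 ± 0.22 and the other by -1.15 ± 0.34. Both of those passed over all probe sets (adjusted p = 0.033 and 0.03151).

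Complex IV, cytochrome c oxidase, had 0 calls among 17 genes and a median of -0.22. COX4I1, COX5A and COX5B, subunits around the catalytic core, changed by -0.08 ± 0.19, -0.23 ± 0.20 and -0.24 ± 0.20. COX6C was at -0.08 ± 0.24. COX8C, a testis isoform, had the lowest value at -0.80 ± 0.32 (adjusted p = 0.07169), from log2 levels of 5.16 and 5.72 in DMSO to 4.75 and 4.53. COX7A2L followed with -0.43 ± 0.21.

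Several subunits of complex IV have a widespread and a tissue-restricted isoform, and the paired values are given side by side. COX6A1 and COX6A2 changed by -0.18 and -0.27, COX6B1 and COX6B2 by -0.21 and -0.18, and COX7A2 and COX7A1 by -0.18 and -0.10. COX4I1 and COX4I2 gave -0.08 and -0.27, COX7B and COX7B2 -0.09 and -0.24, and COX8A and COX8C -0.26 and -0.80. Each of these values was within 3 standard errors of 0 and none was called, and no difference within a pair was tested. Of these isoforms COX6B2, COX7A1, COX7B2 and COX8C lay below the median of all rows (6.33), as did ATP5MGL, where a true change is hard to see; the other 78 members lay above it.

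Complex V had 0 calls among 19 genes and a median of -0.23. The catalytic subunits ATP5F1A and ATP5F1B changed by -0.26 ± 0.37 and -0.23 ± 0.20, and ATP5F1C of the central stalk by -0.50 ± 0.37. The 3 genes of the membrane ring, ATP5MC1, ATP5MC2 and ATP5MC3, encode the same mature protein and changed by -0.07, -0.31 and -0.41. ATP5PB, a peripheral stalk subunit, had the lowest value at -0.81 ± 0.44 (adjusted p = 0.1667). ATP5F1E and ATP5MK, small subunits, were at -0.06 ± 0.19 and 0.04 ± 0.19. Each value below 0 given here for complex V was above 0 after median centring, as were those of UQCRC1, UQCRC2, UQCR10 and UQCRH in complex III and all those given for complex IV.

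Most of these genes gave strong signals and are short. Over all genes in IMR-32 at 400 nM, larger falls went with stronger signals and with longer spans. A probe set's signal also depends on its probes, so the following is a split by measured signal and not by amount of RNA. From the lowest to the highest signal quartile, all genes had medians of -0.23, -0.48, -1.41 and -1.125. The shares called lower were 9.08%, 29.6%, 64.6% and 52.9%. The highest quartile held 76 members, of which 6 were called lower, with a median of -0.26. In the top 10% of genes by mean signal there were 72 members, of which 4 were called lower with a median of -0.26. The other 1753 genes of that stratum had 35.3% called lower and a median of -0.76. In the top 5% there were 64 members with 2 called lower and a median of -0.23, against 21.9% of 849 other genes and a median of -0.51. Members therefore had fewer calls and smaller median falls than other genes of the same stratum, as a description without a test. Signal was not matched within a stratum: of the top 10%, 64 of 72 members but 849 of 1753 other genes lay in the top 5%. Gene span was not matched either.

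Gene span, the distance from start to end of the annotated gene, had a median of 8.92 kb over members and 25.7 kb over all genes. By quartiles of all genes, 43 members lay in the shortest quartile, 27 in the second, 10 in the third and 3 in the longest. The numbers called lower were 0, 2, 4 and 0 in that order, and the shares of all genes called lower were 24.9%, 39.8%, 47.3% and 44.4%. The 6 called genes spanned 12.6 to 50.4 kb with a median of 29.5 kb, and the other 77 had a median of 8.24 kb. Long members were not all low: NDUFA10 (133 kb) and COX7B2 (174 kb) changed by -0.35 and -0.24, and NDUFS4 (123 kb) by -0.98 without a call (adjusted p = 0.08184), while SDHD, of 8.92 kb, had the second lowest change. Over the 83 members Spearman's rho of change with span was -0.37, and over 18201 genes it was -0.28. The rho with mean signal was 0.42 over members and -0.51 over all genes. Genes share arrays and probes, so these are descriptions.

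**Figure D4:**
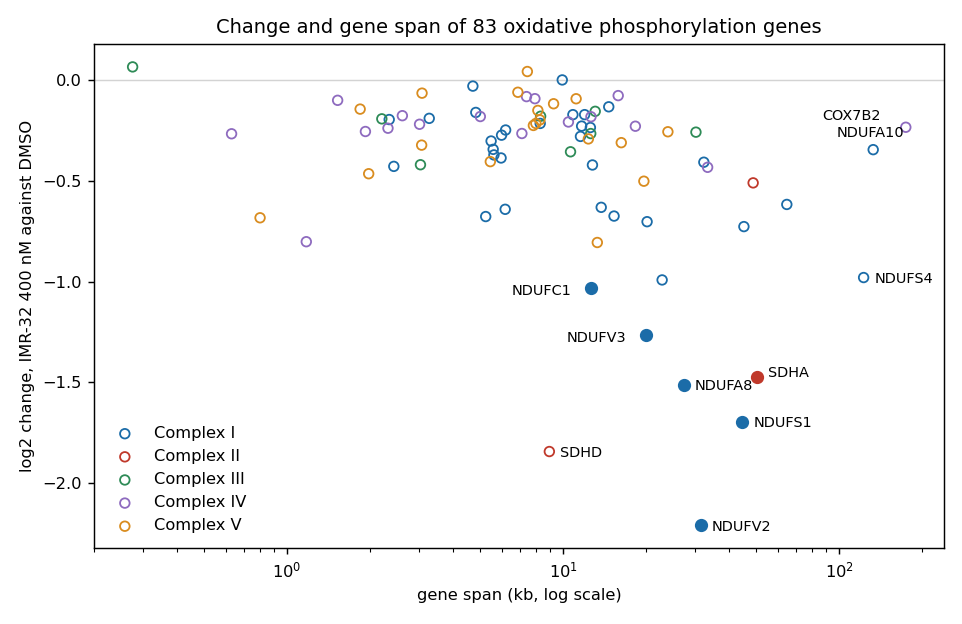
Fitted log2 change in IMR-32 at 400 nM against DMSO (vertical axis) against gene span in kb on a log axis for the 83 genes, coloured by complex; filled circles were called lower. The filled circles lie between 12.6 and 50.4 kb, while SDHD (8.92 kb) is low and NDUFA10 and COX7B2 are long with changes of -0.35 and -0.24; after median centring the points near 0 lie above it.

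In Kelly cells at 400 nM, 0 of the 83 genes were called, and 0% of all genes were called lower and 0% higher. By unadjusted p under 0.05, 0 members and 1176 genes were lower. The median member changed by 0.12, against -0.26 for all genes. The fitted change was above 0 for 52 members, where 25.3% of all genes were above 0, and 65 lay above the median gene. For 30 members both treated arrays lay above both DMSO arrays, where 9.26% of all genes did so, and for 15 both lay below, where 48.8% of all genes did. The medians of complexes I, III, IV and V were 0.11, 0.13, 0.18 and 0.10, and that of complex II was -0.20.

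SDHD had the lowest value in Kelly at -1.50 ± 0.67 (adjusted p = 0.5034). NDUFV2 was at -1.01 ± 0.50, NDUFS1 at -0.96 ± 0.58 and UQCRC2 at -0.71 ± 0.51. UQCRC2 had log2 levels of 11.71 and 11.41 in DMSO and of 10.07 and 11.63 at 400 nM, so its arrays overlapped and replicate 1 alone was low. COX8C was at -0.65 ± 0.32. NDUFB2 was at the upper end of complex I with log2 levels of 12.32 and 12.50 without drug and 12.90 and 12.69 at 400 nM, a change of 0.38 ± 0.19 (adjusted p = 0.5034). Leaving out replicate 2 or replicate 1 of the 3 groups whose arrays differed (chosen after seeing the data) left 1 array in each. The pooled spread then came from the other groups alone, so calls from those fits are not read as results. Their counts are listed only with the alternative settings at the end. The median member lay above the median gene by 0.46 without replicate 2 and by 0.25 without replicate 1. Leaving out 1 array at a time gave 0 member calls in each case.

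At 100 nM, 0 members were called in IMR-32 and 0 in Kelly, and in both lines 0% of all genes were called lower and 0% higher. The unadjusted p was under 0.05 for 0 members in IMR-32, and for 2 in Kelly, where 1813 genes were lower by that measure. The median member changed by -0.16 in IMR-32 (all genes -0.30) and by 0.04 in Kelly (all genes -0.33). The Kelly value has no settled sign, since the median member was at 0.20 in replicate 1 and at -0.12 in replicate 2. In IMR-32 the smallest p values belonged to NDUFV3 at -0.64 ± 0.35, NDUFA8 at -0.70 ± 0.41 and SDHA at -0.68 ± 0.40, each with adjusted p = 0.465. Those means stand for no array: NDUFA8 had log2 levels of 10.17 and 11.57 at 100 nM, against 11.44 and 11.71 in DMSO. With 1 array left in the IMR-32 100 nM group, the median member lay above the median gene by 0.24 without replicate 2 and by 0.02 without replicate 1. In Kelly SDHD was at -1.58 ± 0.67 and UQCRC2 at -1.16 ± 0.51 (both adjusted p = 0.4265), and NDUFB2 at 0.42 ± 0.19. With 1 array left in each of the 3 groups that differed, the median member in Kelly at 100 nM lay above the median gene. It did so by 0.36 without replicate 1 and by 0.37 without replicate 2.

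Between the doses, 0 members were called in IMR-32 (400 against 100 nM), where 0.00548% of all genes were called lower and 0% higher. The median member changed by -0.16 and the median gene by -0.42. NDUFV2 had the smallest p, with -1.50 ± 0.50 (unadjusted p = 0.01485, adjusted p = 0.2082), and was the only member under an unadjusted 0.05, where 19.5% of all genes were lower by that measure. SDHD had -1.44 ± 0.67 and COX7A1 -0.51 ± 0.25. With 1 array left in the IMR-32 100 nM group, the median member lay above the median gene by 0.40 without replicate 1 and by 0.17 without replicate 2. In Kelly 0 members were called between doses, and 0% of all genes were lower and 0% higher, with medians of 0.04 for members (-0.04 after median centring) and 0.06 for all genes. COX7A1, ATP5MK and COX7B2 had the smallest p there, each with an adjusted p of 1.

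The difference between the lines in the effect of 400 nM was above 0 for 80 of the 83 genes and for 85.3% of all genes, that is, the change was higher in Kelly, but 0 were called, and 0% of all genes were called lower and 0% higher. The median difference was 0.41 over members and 0.49 over all genes, and with median centring the median over members was -0.20, so its sign rests on the scaling. COX7A2L had 0.70 ± 0.30 (unadjusted p = 0.04298, adjusted p = 0.4494), and COX4I2 0.69 ± 0.32 with the same adjusted p. In the main fit the lines were therefore not shown to respond differently in any of these genes. A fit of the compared arrays alone called NDUFA8 and SDHA, with the change higher in Kelly.

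In DMSO, Kelly differed from IMR-32 in 2 members. COX4I1, the widespread isoform of a regulatory subunit of complex IV, read 5873 and 6900 in Kelly and 3093 and 3403 in IMR-32. It was higher by 0.97 ± 0.19 (adjusted p = 0.01739), and in all 6 Kelly arrays it lay above all 6 IMR-32 arrays. Of its 2 other probe sets 1 passed in the same direction (0.91) and 1 had -0.51 without passing. COX5B, a zinc-binding subunit of the same complex, read 2326 and 2746 in Kelly and 4615 and 5149 in IMR-32. It was lower by 0.95 on the log2 scale (-0.95 ± 0.20, adjusted p = 0.02554), and again the arrays of the lines did not overlap at any dose. Leaving out any of the 4 DMSO arrays ended both calls, with adjusted p of 0.07177 to 0.1646 for COX4I1 and 0.09737 to 0.2148 for COX5B. Leaving out either IMR-32 400 nM array, which enters through the pooled spread, gave 0.054 for COX5B. The mean of all probe sets ended the call of COX4I1 (adjusted p = 0.243), and median centring (adjusted p = 0.1881) and quantile normalization (0.07096) that of COX5B. One call of 83 in each direction stands beside 1.98% of all genes higher and 3.02% lower.

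ATP5MJ, a small subunit of ATP synthase, came next with -0.79 ± 0.20 (adjusted p = 0.05829). UQCRH, the hinge protein of complex III, had 0.92 ± 0.24 (adjusted p = 0.06379) and UQCRHL 1.33 ± 0.48 (adjusted p = 0.2042). Of the members, 23 lay above in both Kelly arrays and 20 below, where 20.9% and 37.8% of all genes did. The median difference was 0.03.

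The genes that build and control the complexes were read from lists beside the members, in IMR-32 at 400 nM. Of 50 measured assembly factors, which help to fold and join subunits without staying in the complex, 35 fell and 0 rose, with a median of -1.28. TMEM70, needed for ATP synthase assembly, fell by 4.09 ± 0.72 (adjusted p = 0.01743), from log2 levels of 10.24 and 10.53 to 6.44 and 6.15. TACO1, a translational activator of a mitochondrially encoded complex IV subunit, fell by 3.55 ± 0.66. SDHAF1, SDHAF2, SDHAF3 and SDHAF4, the assembly factors of complex II, all fell, with changes of -3.25, -3.39, -3.32 and -1.75. At 400 nM SDHAF1 (5.77 and 5.80), SDHAF3 (6.01 and 6.19) and TMEM70 in replicate 2 lay below the median of all rows (6.33). The size of these 3 falls is thus less certain than the direction. SDHAF2, which serves the flavin attachment to SDHA, had log2 levels of 9.74 and 9.88 in DMSO, 6.66 and 9.79 under 100 nM THZ531, then 6.39 and 6.44 under 400 nM. SCO2, a copper chaperone, was the highest at 0.20 ± 0.28. In Kelly at 400 nM 0 of the 50 were called and their median was -0.66.

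Of the 11 nuclear regulators measured, 7 fell: NRF1, GABPB1, PPRC1, SP1, CREB1, PPARGC1A and ESRRA, with a median of -2.55 over the 11. NRF1, whose letters were counted in the promoters above, fell by 3.36 ± 0.65 (adjusted p = 0.01743), from log2 levels of 8.31 and 8.57 in DMSO to 5.10 and 5.06. GABPB1 fell by 4.47 ± 1.05, from 9.16 and 9.54 to 4.86 and 4.90. Both genes lay below the median of all rows (6.33) at 400 nM, so the size of their falls is less certain than the direction. YY1 had -1.11 ± 0.60 and GABPA -1.93 ± 0.69, and neither passed (adjusted p = 0.1635 and 0.05101). Of 5 genes that act on the mitochondrial genome, POLRMT, TFB1M, TFB2M and MTERF1 fell and TFAM had -0.40 ± 0.72. The electron carriers CYCS and CYC1 had -0.86 ± 0.42 and -0.43 ± 0.20, with adjusted p of 0.1324 and 0.118. After median centring 15 assembly factors were lower and 1 higher (median -0.24), and 7 regulators lower and 1 higher (median -1.51). After quantile normalization 12 assembly factors were lower and 2 higher (median 0.02), and 6 regulators lower and 1 higher (median -1.55). Counts of 35 of 50 and 7 of 11 stand beside 39% of all genes and 6 of 83 subunits, as a description without a test, and the lists differ in signal and in span (medians of 16.1 kb and 54.8 kb).

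**Figure D5:**
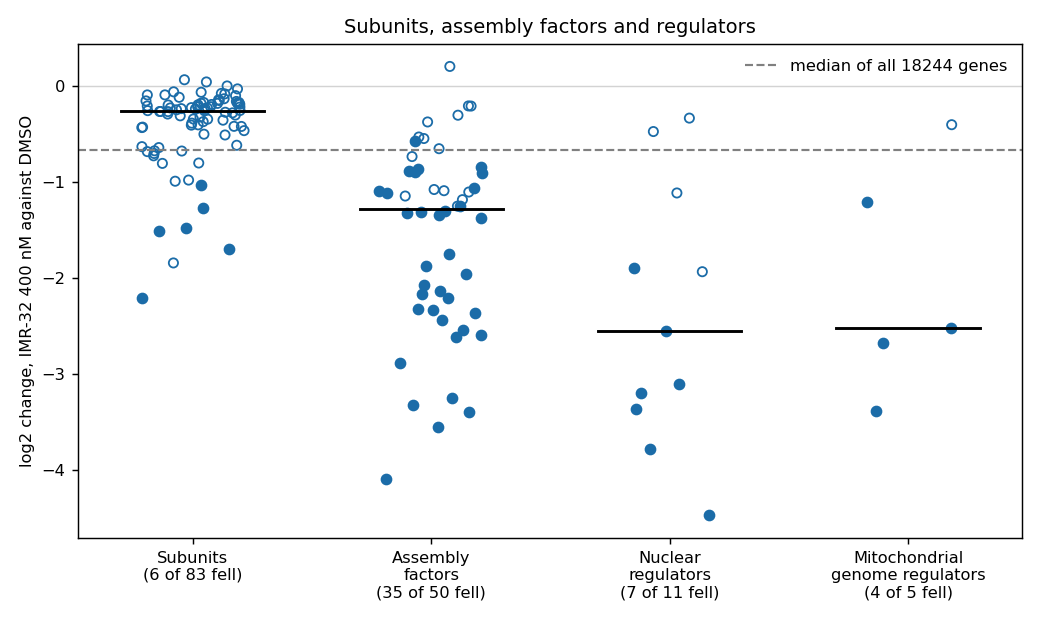
Fitted log2 change in IMR-32 at 400 nM against DMSO of the 83 subunit genes, 50 assembly factors, 11 nuclear regulators and 5 regulators of the mitochondrial genome; filled circles were called, bars are medians and the dashed line is the median of all genes. Medians are -0.27, -1.28, -2.55 and -2.52 in that order; quantile normalization turns the median of the assembly factors to 0.02 and that of the subunits to 0.27.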

How the data were processed

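RNA of Kelly and IMR-32 cells was measured on 12 arrays, 2 for each of 6 groups, with groups and replicate numbers taken from the labels. The deposited values are linear intensity values for 49495 rows, which the authors made with a custom array definition holding ERCC probes and then renormalized by a loess fit to the spike-ins and for cell number. The submitters' processing notes name MAS5, affy and R 3.1.3. All 12 columns were used as deposited, with 0 columns left unused. Because scaling was to spike-ins, fewer RNA molecules per cell in general would stay in the values.

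Values were taken to log2 with no pseudocount. Probe sets with a single symbol (45278) were used. Those with several symbols (1333, of which 6 touch members) and the 2682 rows outside the annotation were not. The brightest probe set over all arrays stood for each of 18244 genes, with no filter on low values. Group means over all 12 arrays were fitted with limma 3.58.1 in R 4.3.3 (6 residual and 2.85 prior degrees of freedom, prior SD 0.297), two-sided, at an FDR of 0.05. The number of arrays limits the precision. On simulated data of the IMR-32 400 nM comparison with 18244 genes, 100 genes had a change of 1 and 100 a change of 2. The remaining genes were left unchanged. Changes of 1 were recovered in 10% and of 2 in 65%, with 5 false calls of 80. In the measured data 39% of all genes were called lower, and recovery with that many changed genes was not tested. Promoters and gene spans came from RefSeq tables of GRCh38.p14, with spans for 18201 genes. Figures were drawn with matplotlib 3.10.9 and pandas 2.3.3 in Python 3.11.15.

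The members, lists and rules were chosen with earlier results of these data known. Genes named in the text were core subunits, in each complex the 3 lowest and 2 highest changes in IMR-32 at 400 nM, the 3 smallest p values of each other comparison, isoform pairs, and members with probe sets opposed to a called change. Other genes were named after their values were seen. Alternatives were median centring, quantile normalization, equal ERCC means, a pseudocount of 16, the mean of all probe sets or each separately, a filter at the row median, a fit of the compared arrays alone, trend and robust options, a replicate block and leaving out arrays. Leaving out arrays of other groups or of 3 groups together, and the crossed block, were added after seeing the data.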

Additional observations from a re-analysis of the deposited data

How the results depend on the processing

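Of the values in IMR-32 at 400 nM (6 lower, 0 higher, median -0.27), equal ERCC means, a pseudocount, trend and robust options, a filter at the row median and the replicate block kept each count within 1.5 times, while the scalings between arrays did not. Median centring gave 1 lower, 32 higher and a median of 0.78, and quantile normalization 1 lower, 2 higher and 0.27; in both the gene still lower was NDUFV2. The mean of all probe sets gave 10 lower. Tested separately, 19 of the members' 190 probe sets were lower and 1 higher, a count of probe sets and not of genes. The shares over all genes or probe sets in these fits are not given here, so these counts are not read as particular to the members. The compared arrays alone gave 19 lower, where 54.9% of all genes were lower. Fits without the second or the first arrays left 1 array in each of 3 groups. Their pooled spread came from the other groups alone. Counts from them, here and for the other comparisons below, show this dependence and are not read as results. Leaving out the second or the first arrays of Kelly 100 nM, Kelly 400 nM and IMR-32 100 nM, chosen after seeing the data, gave 21 lower each, where 57.9% of all genes were lower. Leaving out 1 array gave medians from -0.38 to -0.20, and no call remained without any of the 4 arrays compared.

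In Kelly at 400 nM (0 lower, median 0.12) the median was 0.55 after median centring, 0.21 after quantile normalization and 0.035 with every probe set, and 0.036 to 0.16 without 1 array; 11 were lower without the second arrays. In IMR-32 at 100 nM (0 lower, -0.16) the medians were 0.29 and 0.083 under the 2 scalings, 12 were lower without the second arrays, and leaving out 1 array gave 0 to 5 lower (5 without IMR-32 100 nM replicate 2) and -0.27 to -0.037. In Kelly at 100 nM (0 lower, 0.04) median centring gave 0.55, 18 were lower without the first arrays, and without 1 array the median ran from -0.12 (without Kelly 100 nM replicate 1) to 0.20 (without replicate 2), so its sign rests on those arrays. For IMR-32 400 against 100 nM (0 lower, -0.16) the medians were 0.43 and 0.17 under the 2 scalings and -0.018 without the second arrays, with 2 lower without the second and 13 without the first, and 0 to 5 lower and -0.24 to -0.018 without 1 array. For Kelly 400 against 100 nM 10 were lower without the second arrays and 14 higher without the first, and without 1 array the median ran from -0.11 to 0.15. The difference between lines (0 called, 0.41) had medians of -0.20 and 0.00063 under the 2 scalings and of 0.32 to 0.53 without 1 array. The compared arrays alone gave 2 higher (NDUFA8 and SDHA), and the share of all genes in that fit is not given here.

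For Kelly against IMR-32 in DMSO (1 lower, 1 higher, median 0.03) median centring gave 0 lower, 2 higher and 0.25. Quantile normalization gave 0, 4 and 0.23, and the mean of all probe sets 0 higher. A pseudocount of 16 and trend and robust options gave 2 lower and 2 higher each. Of the 190 probe sets tested separately, 2 were lower and 2 higher. The compared arrays alone gave 2 lower and 5 higher. The shares of all genes under these alternatives are not given here, so the counts are not read as gains or losses particular to the members. Leaving out 1 array gave medians of -0.12 to 0.12, and both calls ended without any one of the DMSO arrays.

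Nothing in the labels pairs arrays by number, and deviations of same-numbered arrays correlated at -0.78 (Kelly 100 and 400 nM), -0.30 and 0.26 (Kelly DMSO with 400 and 100 nM) and 0.16 to 0.27 in IMR-32. The 3 IMR-32 values are above 0.1, but each group has only 2 numbers and the Kelly values do not follow, so the numbers were not used as pairs. With the replicate block 5 genes were lower in IMR-32 at 400 nM (NDUFS1 had adjusted p = 0.05722) and 0 lower in Kelly than in IMR-32 DMSO (COX5B had 0.05288). The crossed block for the Kelly 400 nM arrays, added after seeing the data, called 0.

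Single genes turned sign in IMR-32 at 400 nM as follows. After median centring the changes were 0.67 for NDUFV1, 0.74 for NDUFS3, 0.81 for NDUFS7, 0.65 for NDUFS8, 1.01 for NDUFA3, 1.04 for NDUFB2, 0.010 for NDUFC1, 0.53 for SDHC, 0.68 for UQCRC1, 0.78 for UQCRC2, 0.62 for UQCR10, 0.77 for UQCRB, 0.89 for UQCRH, 0.96 for COX4I1, 0.81 for COX5A, 0.80 for COX5B, 0.24 for COX8C, 0.61 for COX7A2L, 0.77 for COX6A2, 0.96 for COX6C, 0.78 for COX4I2, 0.86 for COX6A1, 0.83 for COX6B1, 0.86 for COX6B2, 0.94 for COX7A1, 0.86 for COX7A2, 0.95 for COX7B, 0.81 for COX7B2, 0.79 for COX8A, 0.78 for ATP5F1A, 0.82 for ATP5F1B, 0.54 for ATP5F1C, 0.98 for ATP5MC1, 0.73 for ATP5MC2, 0.64 for ATP5MC3, 0.24 for ATP5PB, 0.36 for ATP5MGL and 0.98 for ATP5F1E. After quantile normalization they were 0.63 for NDUFV1, 0.38 for NDUFS3, 0.50 for NDUFS7, 0.37 for NDUFS8, 0.58 for NDUFA3, 0.55 for NDUFB2, 0.15 for NDUFV3, 0.26 for SDHC, 0.11 for UQCRC1, 0.39 for UQCRC2, 0.020 for UQCR10, 1.02 for UQCRB, 0.38 for UQCRH, 0.53 for COX4I1, 0.14 for COX5A, 0.26 for COX5B, 0.28 for COX7A2L, 0.89 for COX6A2, 0.33 for COX6C, 0.80 for COX4I2, 0.11 for COX6A1, 0.20 for COX6B1, 0.65 for COX6B2, 0.34 for COX7A1, 0.15 for COX7A2, 0.32 for COX7B, 0.14 for COX8A, 0.11 for ATP5F1A, 0.065 for ATP5F1B, 0.21 for ATP5F1C, 0.69 for ATP5MC1, 0.10 for ATP5MC2 and 0.32 for ATP5F1E. COX7A1 between doses in IMR-32 had 0.086 after median centring, and without the first arrays NDUFA8 and SDHA at 100 nM had 0.00016 and 0.021. Leaving out 1 array gave, at 400 nM, -0.17 to 0.034 for ATP5MC1, -0.14 to 0.081 for NDUFA3, -0.082 to 0.081 for NDUFB2, -0.25 to 0.38 for UQCRHL, -0.16 to 0.033 for ATP5F1E, -0.049 to 0.13 for ATP5MK, -0.34 to 0.13 for COX7A1 and -0.20 to 0.016 for COX7B, and at 100 nM -1.40 to 0.00016 for NDUFA8 and -1.39 to 0.021 for SDHA. Apart from the scalings' own shift of all genes (0.37 and 0.18 in place of -0.67), the cause of these turns was not tested. Low signal limits COX7B2, COX8C, COX7A1, ATP5MGL and COX6B2.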
